A study of Homo sapiens with 43 samples.

Results

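Peak lists of the RNA-binding protein LIN28 were examined in 2 of the 43 samples of an eCLIP series from HEK293T cells, a human embryonic kidney line. The LIN28 V5 library came from cells in which a V5 tag, a short epitope, had been integrated by CRISPR/Cas9 at the gene of the protein, and was immunoprecipitated with an antibody against V5. The LIN28 wild-type library came from HEK293T cells without the tag and was immunoprecipitated with an antibody against LIN28 itself. Both antibodies were from Bethyl. The cells, the ultraviolet crosslinking at 254 nm and the excised gel window of 75 kDa above the protein were described alike for both. The members are all rows of the deposited peak lists of these samples, chosen by sample title, and compared on the same strand. They number 73182 peaks in LIN28 V5 and 42707 in LIN28 wild type, together 115889 of the 1430241 peaks in the 25 lists of the series. Each state had 1 library, so no difference between the states has a replicate check and none was tested. The tagged cells differ from the wild-type cells in the tag and in the antibody at once, and these cannot be told apart. Which LIN28 paralog was targeted is not stated in the labels, nor whether the tagged cells were 1 clone or whether untagged copies of the gene remained.

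LIN28 proteins bind RNA through a cold-shock domain and a pair of zinc knuckles. They are best known for binding the precursors of let-7 microRNAs, where the zinc knuckles recognise a GGAG sequence, and for blocking the maturation of let-7. They also bind many messenger RNAs, and they are abundant in embryonic cells and in some tumours. In eCLIP, RNA crosslinked to the protein is cut by limited RNase I digestion, recovered with the protein from a gel window and sequenced beside an input taken from the same window without immunoprecipitation. The other proteins of the series bind other classes of RNA. DGCR8 is the RNA-binding partner of DROSHA in microRNA processing, FMR1 is a translational regulator, RBFOX2 is a splicing regulator and HNRNPC binds uridine-rich nascent RNA. A further 14 lists came from tag-only samples, labelled V5-only or FLAG-only without a protein, in 7 gel ranges for each tag.

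Each row carries 2 values of the authors, a log2 fold over the size-matched input and a −log10 p. Both are the peak's own values. A peak with a log2 fold of at least 3, an 8-fold enrichment, and a −log10 p of at least 3 is called significant here. LIN28 V5 held 7780 significant peaks, 10.6% of its rows, and LIN28 wild type held 2020, 4.73% of its rows. The ratio of V5 to wild type was 3.85. Significant peaks covered 400 kb in LIN28 V5 and 110 kb in LIN28 wild type. Their median log2 folds were close, at 3.95 in V5 and 3.91 in wild type, but both are taken above the same threshold of 3. The RBFOX2 lists had similar medians, 3.91 in wild type and 3.88 in V5. At overlapping LIN28 pairs significant in both libraries, the medians were 4.72 in V5 and 4.05 in wild type. The widths of significant LIN28 peaks were also close, with medians of 51 nt in V5 and 54 nt in wild type.

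The wild-type list lost more of its enriched rows to the p threshold. A log2 fold of at least 3 was reached by 10250 rows in LIN28 V5, of which 2470 (24.1%) had a −log10 p under 3. In LIN28 wild type it was reached by 3590 rows, of which 1570 (43.7%) had a −log10 p under 3. At the edge of the threshold, the lowest significant log2 fold was 3.0017 in V5 and 3.0022 in wild type, and the highest value below it was 2.9989 in V5 and 2.9932 in wild type. Read totals of the libraries were not used here, so their depth is unknown. The commonest single log2 fold was 0.98 in V5, held by 7870 rows, and 2.17 in wild type, held by 6926 rows. Below the cap of 400, the commonest −log10 p of significant V5 peaks was 15.7. It was carried by 1005 significant V5 peaks and 152 significant wild-type peaks. Values between 15.7 and 400 also occurred in both lists, so 15.7 is not the upper limit of a list. Strong peaks could still stand at it. At chr17:73774339-73774539 in V5, a peak of log2 fold 8.17 had a −log10 p of 15.7, and a peak of 4.84 had 52.0. A value of 15.7 therefore does not rank a peak below those with higher values. The part of depth in the difference between the lists was not tested.

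Most wild-type sites were found again with the tag antibody, while most V5 sites were not significant in wild type. Of the 2020 significant wild-type peaks, 1652 overlapped a significant V5 peak by at least 1 nt, which was 81.8% (95% Wilson interval 80.0% to 83.4%). Of all wild-type rows 12.0% did so, and of the wild-type rows that were not significant 8.54%. In the other direction, 2242 of the 7780 significant V5 peaks overlapped a significant wild-type peak, which was 28.8% (27.8% to 29.8%). Of all V5 rows 3.70% did so, and of the V5 rows that were not significant 0.711%. All intervals given here reflect counting error over peaks and nothing else, and peaks next to each other on a transcript are not independent. Over all rows, 22804 of the 73182 V5 peaks lay on any wild-type peak (31.2%, interval 30.8% to 31.5%), and 21078 of the 42707 wild-type peaks lay on any V5 peak (49.4%, 48.9% to 49.8%). Where an overlap had to cover 50% of both peaks, the shares were 18.1% of significant V5 peaks, 18.5% of V5 rows and 31.8% of wild-type rows.

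Most of the V5 peaks that missed a significant wild-type peak still had a called wild-type peak under them. Of the 7780 significant V5 peaks, 3684 (47.4%) lay on a wild-type peak that was called without being significant, and 1854 (23.8%) lay on no wild-type peak. At the 3684, the best wild-type log2 fold had a median of 2.27 (quartiles 1.78 to 2.76), where the median over all wild-type rows was 1.59. It was above 0 at 3672 of them (99.7%), at least 2 at 2410 (65.4%), and at least 3 with too low a −log10 p at 464 (12.6%). Over all wild-type rows the quartiles were 0.91 to 2.17, and only 5.96% of rows lay below 0, so a value above 0 was common anyway. The best value is also the highest of the overlapping rows, while the values over all rows count each row once. The strength of the V5 peaks themselves differed between these states. V5 peaks that were significant in both libraries had a median V5 log2 fold of 4.68, while both other states had a median of 3.79.

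The same held for the smaller number of wild-type peaks that V5 did not match. Of the 2020 significant wild-type peaks, 308 (15.2%) lay on a V5 peak that was called without being significant, and 60 (2.97%) lay on no V5 peak. At the 308, the best V5 log2 fold had a median of 2.48 (quartiles 1.93 to 2.79), where the median over all V5 rows was 1.51. It was above 0 at 306 of them (99.4%) and at least 2 at 223 (72.4%). Over all V5 rows the quartiles were 0.88 to 2.40, and 10.4% of rows lay below 0. Here too the highest of the overlapping rows is set beside single rows. Median wild-type log2 folds were 4.05 for the peaks significant in both libraries, 3.59 for those called only in V5 and 3.49 for those with no V5 peak.

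The share found again climbed with the height of a peak in both directions. In the class of log2 fold 3 to under 4, 14.2% of 4134 V5 peaks were significant in wild type (interval 13.1% to 15.2%). The share was 32.1% of 2485 peaks (30.3% to 33.9%) from 4 to under 5, and 65.2% of 778 peaks (61.8% to 68.4%) from 5 to under 6. Among the 383 V5 peaks of 6 and above it was 92.2% (89.0% to 94.5%), and 99.5% of these lay on a called wild-type peak. Among wild-type peaks the shares in V5 were 75.6% of 1081, 85.2% of 688 and 98.8% of 172 in the first 3 classes. All 79 wild-type peaks in the class of 6 and above were significant in V5 (interval 95.4% to 100%). The stacked plot by fold class shows that the peaks absent from the other list are concentrated in the lowest classes.

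**Figure D1:**
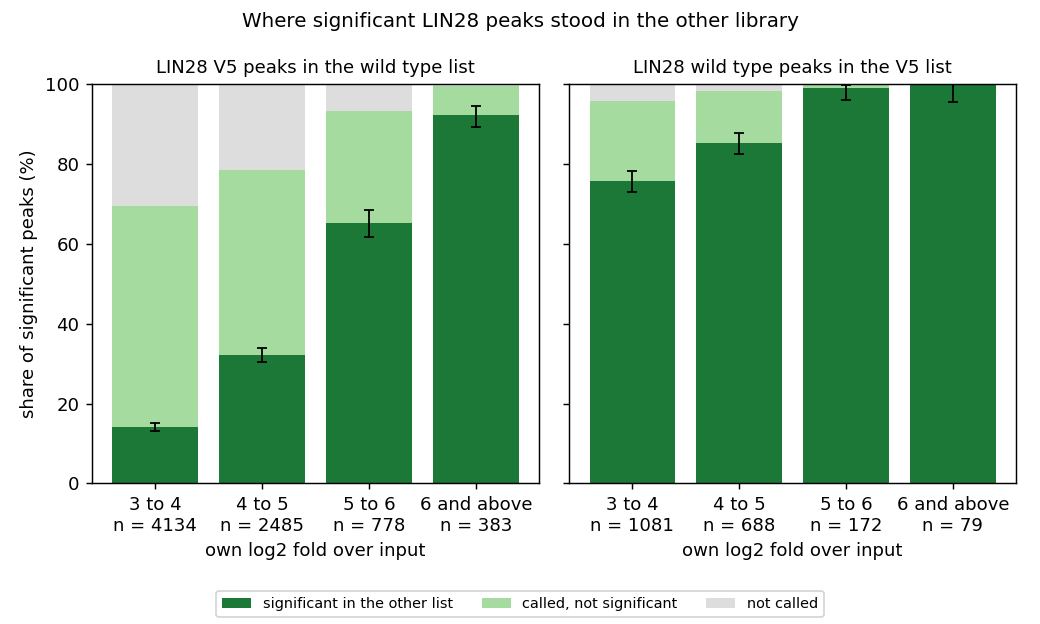
Share of significant LIN28 V5 peaks (left) and LIN28 wild-type peaks (right) that were significant, called without being significant, or not called in the other library, in %, by their own log2 fold over input. Error bars are 95% Wilson intervals of the significant share; it reaches 92.2% for V5 peaks and 100% for wild-type peaks of log2 fold 6 and above.

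Rank order within the lists was shared less than this. Of the 50 V5 peaks of highest fold, 42% overlapped one of the 50 highest wild-type peaks, and of those 50 wild-type peaks 46% overlapped one of the V5 peaks. With the 500 highest of each list, the shares were 58% of V5 peaks and 44% of wild-type peaks. With the V5 list shortened to its 2020 highest peaks, the length of the wild-type list, 61.1% of V5 peaks and 45.4% of wild-type peaks overlapped. That V5 list ended at a log2 fold of 4.54, well above the threshold of 3. The 81.8% of the full lists therefore includes V5 peaks of ranks that an equally short list does not hold. These shares count peaks, so a binding region cut into several peaks counts several times.

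Where peaks of both lists overlapped, their enrichments moved together. The 23915 overlapping pairs of rows gave a Pearson r of 0.725 and a Spearman rho of 0.648 between V5 and wild-type log2 folds. This is a description across pairs that all come from the same 2 libraries and their inputs. The V5 value exceeded the wild-type value in 62.4% of pairs, with a median difference of 0.39 (quartiles −0.45 to 1.20). The plot of paired folds shows 1 cloud along the diagonal with a few pairs alone at its top, near a log2 fold of 10 in both libraries.

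**Figure D2:**
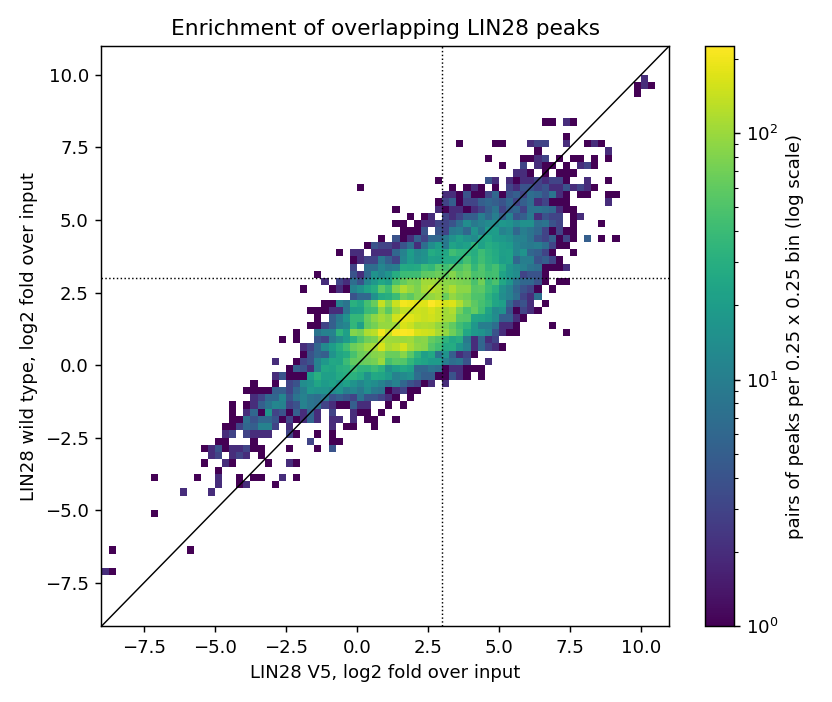
Log2 fold over input of 23915 overlapping peak pairs, LIN28 V5 on the x axis and LIN28 wild type on the y axis; colour gives the number of pairs per bin on a log scale. The solid line marks equal values and dotted lines mark the threshold of 3; Pearson r was 0.725 and the V5 value was higher in 62.4% of pairs.

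At pairs significant in both libraries, V5 enrichment was more often the higher. The 2360 such pairs had a median log2 fold of 4.72 in V5 and 4.05 in wild type, with a median difference of 0.60 (quartiles −0.09 to 1.32, range −4.18 to 4.58). V5 was higher in 1706 of them (72.3%). Without the pairs in which a −log10 p lay at 15.7 or at the cap of 400, 1364 pairs were left and the median difference was 0.35. V5 exceeded wild type by at least 1 on the log2 scale in 826 (35.0%), where 30.3% of all overlapping pairs did so. Wild type exceeded V5 by at least 1 in 153 (6.48%), where 12.7% of all overlapping pairs did so. These pairs correlated less than the whole, with r = 0.508 and rho = 0.391.

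The difference depended on which library set the class. Grouped by wild-type log2 fold, pairs significant in both had median differences of V5 minus wild type of 0.91 from 3 to under 4, 0.34 from 4 to under 5, −0.03 from 5 to under 6 and −0.05 at 6 and above. Grouped by V5 log2 fold, the same pairs had medians of −0.22, 0.57, 1.27 and 1.55 in those 4 classes. Each grouping holds 1 of the values compared within limits, so the opposite trends follow in part from the grouping itself. Pairs significant in neither library, 17145 in number, had a median difference of 0.13, with medians of 1.62 in V5 and 1.34 in wild type.

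For orientation, the same correlation over all overlapping rows was 0.785 for RBFOX2 with V5, 0.788 for DGCR8 with FLAG, 0.690 for FMR1 with FLAG and 0.577 for HNRNPC isoform 1 with V5. LIN28 lay between FMR1 and RBFOX2. The median difference of tagged minus wild type was 0.54 for FMR1, −0.07 for RBFOX2, −0.08 for DGCR8 and −0.22 for HNRNPC, against 0.39 for LIN28. Against the 23 lists of other samples, Pearson r reached at most 0.506 for LIN28 V5 and 0.600 for LIN28 wild type, in both cases with DGCR8 FLAG.

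Adjacent significant peaks of both LIN28 lists within 50 nt on the same strand were joined into sites, so that a binding region cut into several peaks counts once. This gave 6467 sites. Of these, 1508 (23.3%) were significant in both libraries, 4617 (71.4%) in V5 alone and 342 (5.29%) in wild type alone. Several V5 peaks lay in 579 of the 1508 shared sites, against 540 of the 4617 sites of V5 alone. Counted by site, 24.6% of the 6125 V5 sites and 81.5% of the 1850 wild-type sites (interval 79.7% to 83.2%) were shared. The V5 share by site (interval 23.6% to 25.7%) lay below the 28.8% by peak, and the wild-type share lay within the interval by peak.

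The edges of shared peaks lay close together. In the 1047 cases where 1 V5 peak and 1 wild-type peak overlapped only each other, the V5 peak was 64 nt wide in the median and the wild-type peak 55 nt, and they shared 52 nt. The 5′ edge of the V5 peak lay a median of 3 nt upstream of the wild-type edge, at −3 nt (quartiles −10 to 1). The 3′ edge lay 3 nt downstream (quartiles 0 to 11). Both edges were within 10 nt of each other in 47.1% of these pairs, and both were identical in 17. V5 peaks thus extended slightly past the wild-type peaks at both ends.

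The shared sites named here are those whose lower log2 fold of the 2 libraries was highest, so high values in both follow from the choice. They are given with the highest log2 fold of any peak in the site and with hg19 positions. The highest pair lay on the minus strand of chromosome 11. The site at chr11:17098715-17098755 had a log2 fold of 10.20 in V5 and 9.75 in wild type. The site at chr11:17097137-17097170 had 10.48 in V5 and 9.54 in wild type. Both lay at the cap of 400 for the −log10 p in both libraries. They were also significant in DGCR8 wild type, at lower log2 folds of 4.03 and 4.06, and in no other list.

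The next sites lay on several chromosomes. The site at chr16:1878196-1878280, plus strand, had 7.58 in V5 and 8.46 in wild type and was called in none of the 23 other lists. The site at chr17:73774339-73774539, minus strand, had 8.17 in V5, in 10 significant peaks, and 7.55 in wild type, in 4. The site at chr19:49119984-49120081, minus strand, had 8.91 in V5 and 7.53 in wild type. It was called in 21 of the 23 other lists and significant in none of them, so peaks were called there without comparable enrichment.

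The remaining 5 of the 10 named shared sites had log2 folds between 6.85 and 8.25. At chr1:154201104-154201201, plus strand, the value was 7.40 in V5 and 7.76 in wild type. At chr20:30921342-30921428, plus strand, it was 7.68 in V5 and 7.22 in wild type. At chr19:42373191-42373284, plus strand, it was 7.87 in V5 and 7.16 in wild type. These 3 sites were each significant in at most 1 other list. At chr17:1577822-1577901, minus strand, the value was 6.91 in V5 and 7.0 in wild type, and this site was significant in 8 other lists. At chr21:48079088-48079168, plus strand, it was 8.25 in V5 and 6.85 in wild type, with no peak called in any other list. Of the 10 sites, 5 were significant in no list but those of LIN28.

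The named sites of V5 alone carried a weaker wild-type peak in every case. The site at chr3:10191852-10192024, plus strand, had a log2 fold of 7.26 in V5 and 2.87 in wild type, with a wild-type −log10 p of 7.31. The site at chr2:62099369-62099449, minus strand, had 6.62 in V5 and 2.24 in wild type, and the site at chr4:1836637-1836710, minus strand, had 6.61 in V5 and 2.96 in wild type. All 3 wild-type values fell short of the threshold on fold and not on p. At chr2:113289590-113289685, plus strand, the log2 fold was 6.45 in V5 and 2.85 in wild type. At chr1:35649368-35649513, minus strand, it was 6.36 in V5 and 2.49 in wild type, and at chr1:1724684-1724750, minus strand, 6.35 in V5 and 1.85 in wild type. Of these 6 sites, 3 were significant in no list other than LIN28 V5.

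The named sites of wild type alone were lower and likewise had a V5 peak beneath them. At chr12:56551235-56551330, plus strand, the log2 fold was 2.69 in V5 and 5.05 in wild type. At chr17:79410479-79410566, plus strand, it was 2.30 in V5 and 5.05 in wild type, and at chr7:99697649-99697685, minus strand, 2.48 in V5 and 4.98 in wild type. The highest wild-type sites without a significant V5 peak therefore stood below all 6 named V5 sites. At chr1:236205210-236205227, minus strand, the log2 fold was 2.89 in V5 and 4.59 in wild type. At chr11:82880386-82880446, plus strand, it was 2.95 in V5 and 4.59 in wild type, and at chr3:49136053-49136108, minus strand, 2.92 in V5 and 4.59 in wild type. None of these 6 sites was significant in any of the 23 other lists.

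**Figure D3:**
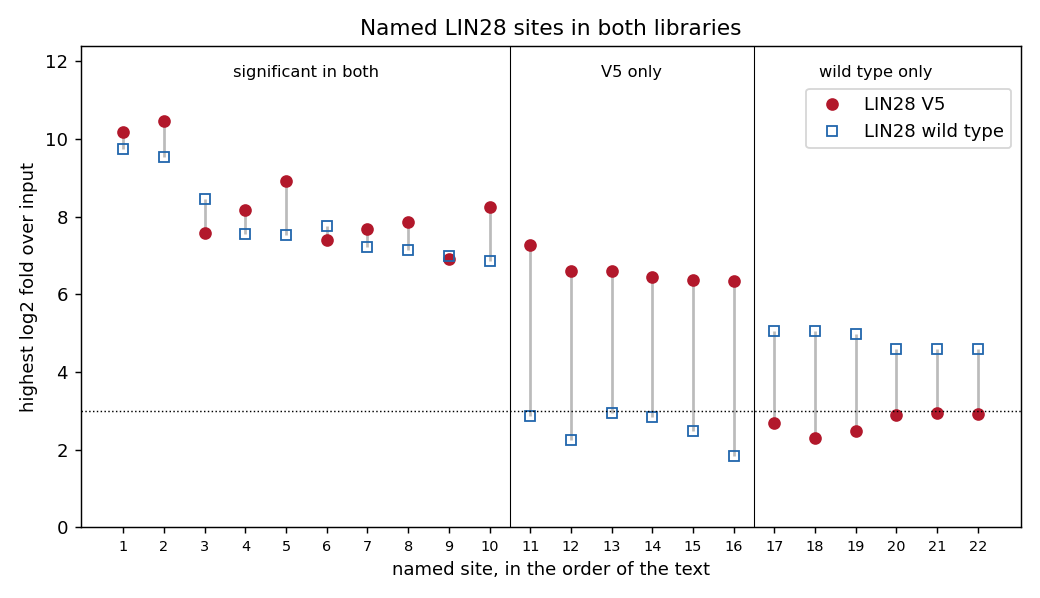
Highest log2 fold over input at 22 named LIN28 sites in the order of the text, LIN28 V5 as filled circles and LIN28 wild type as open squares, each from 1 library; the dotted line marks the threshold of 3. Sites 1 to 10 were significant in both libraries, 11 to 16 in V5 alone and 17 to 22 in wild type alone, where the lower symbol of each pair lies between 1.85 and 2.96.

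A minority of the sites of V5 alone lay near significant wild-type peaks. Of the 4617 sites of V5 alone, 8.69% lay within 1 kb of a significant wild-type peak on the same strand and 24.4% within 10 kb. V5 rows that were not significant did so in 4.18% and 11.7%. Of the 342 sites of wild type alone, 19.6% lay within 1 kb of a significant V5 peak and 50.0% within 10 kb. Wild-type rows that were not significant did so in 18.9% and 37.6%. The sets are unlike, since these rows may overlap a significant V5 peak, as 8.54% did, and sites of wild type alone cannot. Likewise 0.711% of V5 rows that were not significant overlapped a significant wild-type peak, which sites of V5 alone cannot. No excess or lack near V5 peaks was therefore read for the sites of wild type alone.

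Sites closer than 5 kb on a strand were chained into 4357 stretches. Of these, 3104 held a single site and 1253 held several, with 3363 sites between them. Of the sites of V5 alone, 860 (18.6%) shared a stretch with a site significant in both libraries, as did 77 (22.5%) of the sites of wild type alone. The stretch with the most sites was chr14:102466468-102482220, plus strand, which spanned 15.8 kb and held 14 sites, 5 significant in both libraries and 9 in V5 alone. It held 20 significant V5 peaks with log2 folds of 3.07 to 7.55 and a median of 4.46, and 5 significant wild-type peaks with log2 folds of 3.25 to 4.98 and a median of 3.91. The plot across this stretch shows each of the 5 wild-type peaks beside a V5 peak, and further V5 peaks between them. Next came chr1:115261314-115282511, minus strand, with 13 sites, of which 2 were shared, 10 of V5 alone and 1 of wild type alone, and then 4 stretches with 10 sites each, of which between 2 and 5 were shared. Without an annotation of this build, it is not known here whether a stretch is 1 transcript.

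**Figure D4:**
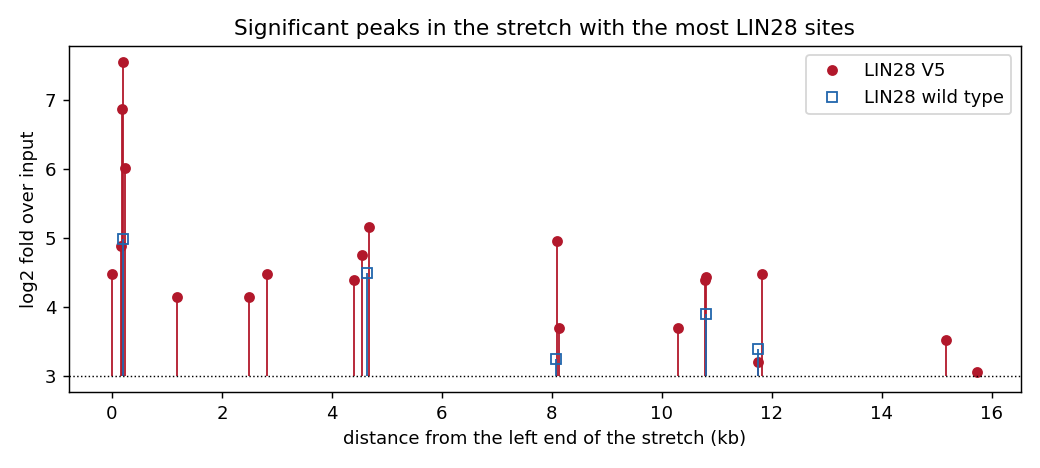
Significant peaks in the stretch on chromosome 14 with the most LIN28 sites, by distance from its left end in kb (x axis) and log2 fold over input (y axis, drawn from the threshold of 3), LIN28 V5 as filled circles and LIN28 wild type as open squares. All 5 wild-type peaks lie beside V5 peaks, which number 20.

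Taken list by list, LIN28 peaks of either library met each of the 23 other lists less often than they met each other. The list met most often was FMR1 FLAG, the longest of the RBP lists with 17354 significant peaks, which overlapped 13.3% of significant LIN28 V5 peaks and 13.4% of significant LIN28 wild-type peaks. The wild-type share in LIN28 V5 exceeded that in FMR1 FLAG by 68.4 percentage points. With each list shortened to its 375 peaks of highest fold, the wild-type share in LIN28 V5 was 44.3%, the next list was DGCR8 FLAG at 1.33%, and the margin was 42.9 points. RBFOX2 V5, also made with the V5 antibody and with a list of similar length to LIN28 wild type, overlapped 0.488% of LIN28 V5 peaks and 0.644% of LIN28 wild-type peaks. The share of all LIN28 rows that met FMR1 FLAG or RBFOX2 V5 was not counted, so these shares have no list-wide value beside them. The plot of overlaps with each list shows the LIN28 lists apart from all others.

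**Figure D5:**
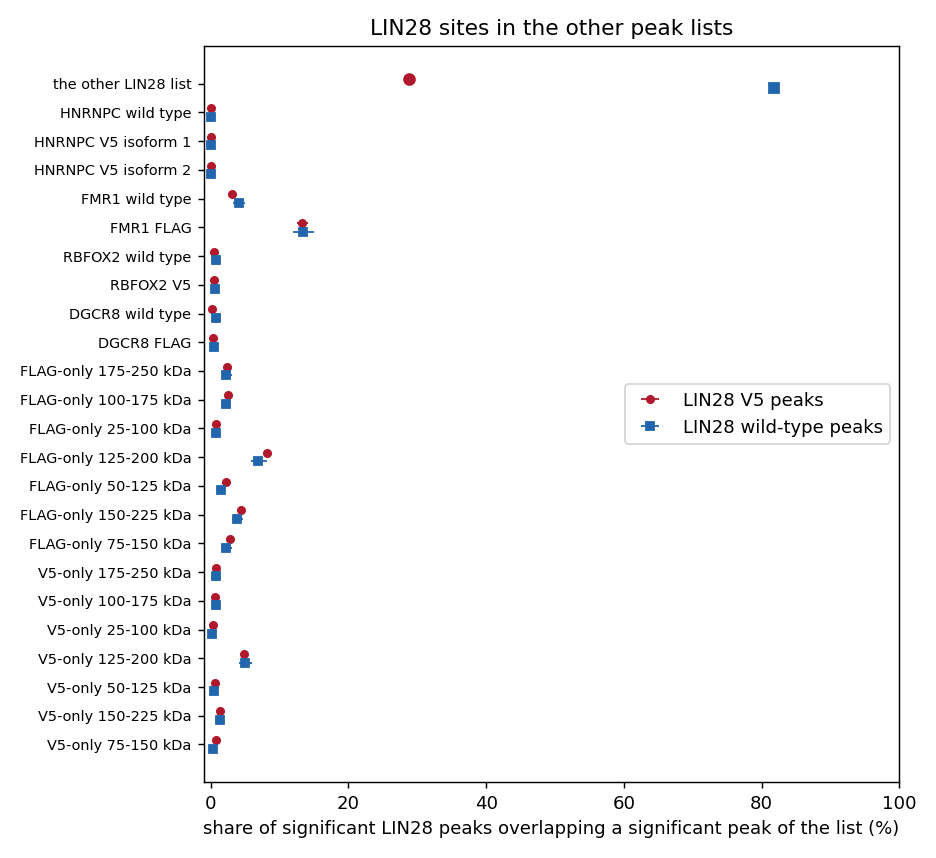
Share of significant LIN28 V5 peaks (circles) and LIN28 wild-type peaks (squares) that overlapped a significant peak of each list named on the y axis, in %; error bars are 95% Wilson intervals. The top row gives the other LIN28 list, with 28.8% of V5 peaks and 81.8% of wild-type peaks, and the highest value below it is 13.4%.

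DGCR8, like LIN28, binds RNA on the way to mature microRNAs. Its lists were short, with 1375 significant peaks in DGCR8 wild type and 457 in DGCR8 FLAG. Few significant LIN28 peaks lay on them, which the length of these lists limits. The share of all LIN28 rows that met them was not counted. DGCR8 wild type overlapped 18 significant LIN28 V5 peaks (0.231%) and 15 significant LIN28 wild-type peaks (0.743%), and DGCR8 FLAG overlapped 26 V5 peaks (0.334%) and 8 wild-type peaks (0.396%). By site, DGCR8 wild type met 9 of the 1508 shared LIN28 sites, 1 of the 4617 sites of V5 alone and none of the 342 sites of wild type alone. DGCR8 FLAG met 6 shared sites (0.398%), 11 sites of V5 alone (0.238%) and none of wild type alone. The sites significant in both LIN28 and both DGCR8 libraries numbered 3 and were looked up after the values had been seen. At chr12:62997508-62997552, plus strand, the log2 fold was 5.20 in LIN28 V5 and 5.34 in LIN28 wild type, 4.85 in DGCR8 FLAG and 8.67 in DGCR8 wild type, and no peak was called in any other list. The other sites were less particular to these proteins. At chr6:31958260-31958279, plus strand, the log2 fold was 5.46 in LIN28 V5 and 4.93 in LIN28 wild type. There 16 lists other than those of LIN28 were significant, both DGCR8 lists among them. At chr17:18965402-18965451, plus strand, the log2 fold was 3.30 in LIN28 V5 and 5.76 in LIN28 wild type. Here 15 lists other than those of LIN28 were significant, again with both DGCR8 lists among them.

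The share of sites seen with LIN28 and with no other sample was alike in the 3 classes of sites. No significant peak of the 23 other lists lay on 1103 of the 1508 shared sites (73.1%, interval 70.8% to 75.3%). The same held for 3366 of the 4617 sites of V5 alone (72.9%, 71.6% to 74.2%) and for 241 of the 342 sites of wild type alone (70.5%, 65.4% to 75.1%). FMR1 FLAG met 14.8% of shared sites, 13.9% of sites of V5 alone and 15.5% of sites of wild type alone. The intervals of the shares with no other list overlap in every pair, which does not show that the classes are equal. The share of all LIN28 rows that met no significant peak of the 23 lists was not counted. These values are therefore not read as a measure of how particular the sites are to LIN28.

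Significant LIN28 peaks of both libraries met the V5-only lists in similar shares, but only the V5 share lay above that of its whole list. The labels do not say which cells the V5-only samples came from. A significant peak of any of the 7 V5-only lists lay on 588 significant LIN28 V5 peaks (7.56%, interval 6.99% to 8.17%), where 5.68% of all V5 rows met one, so the V5 share was above that of the whole list. It lay on 142 significant LIN28 wild-type peaks (7.03%, 5.99% to 8.23%), where 7.35% of all wild-type rows met one, so the wild-type share was near that of the whole list. A single list carried much of these values, since without the V5-only list of 125 to 200 kDa the shares were 3.77% of V5 peaks and 2.92% of wild-type peaks. The V5 share was 20.0% when a log2 fold of 2 sufficed for significance and 1.54% when 4 was required. By site, the share was 7.16% of shared sites, 7.75% of sites of V5 alone and 9.65% of sites of wild type alone, and without that list it was 3.05% of shared sites, 4.29% of sites of V5 alone and 4.39% of sites of wild type alone. The 7 FLAG-only lists met 14.4% of LIN28 V5 peaks, where 9.88% of all V5 rows met one, and 11.9% of LIN28 wild-type peaks, where 12.2% of all wild-type rows met one. The LIN28 V5 share was again above that of its list, and the wild-type share near that of its list. Across the 23 nuclear chromosomes without Y, the significant share ran from 8.13% to 13.2% of rows in V5 and from 3.40% to 5.76% in wild type.

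The largest disagreements at shared sites were picked out after their values had been seen. At chr10:79800373-79800447, plus strand, the log2 fold was 7.67 in V5 and 3.77 in wild type, a difference of 3.90, and this site was significant in 11 other lists, all of them tag-only. At chr9:35705556-35705667, minus strand, it was 7.27 in V5 and 3.39 in wild type. In the opposite direction, the site at chr17:74078174-74078277, minus strand, had 3.46 in V5 and 5.72 in wild type, and the site at chr17:18965402-18965451 described above differed by −2.45.

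Places depleted relative to input were in part held in common. A log2 fold of −2 or below was reached by 291 V5 rows (0.398% of the list) and 138 wild-type rows (0.323%). Of the V5 rows, 257 lay on a wild-type row, where the median log2 fold was −1.66, and 101 (34.7%) were at −2 or below there too, where 0.157% of all V5 rows lay on such a wild-type row. Of the wild-type rows, 116 lay on a V5 row, where the median log2 fold was −3.75, and 104 (75.4%, interval 67.6% to 81.8%) were at −2 or below there too, where 0.674% of all wild-type rows lay on such a V5 row. Rows depleted in wild type were thus mostly depleted in V5, and fewer of those depleted in V5 reached −2 in wild type.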

How the data were processed

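Each row of a deposited list gives coordinates, strand, −log10 p and log2 fold, and the lists have no header line. The authors' −log10 p ends at a cap of 400, and the authors' log2 fold compares each immunoprecipitation with its size-matched input. The build is hg19, and reads were handled with STAR, cutadapt, SAMtools, Picard and GATK, per the submitters' processing notes, which give no versions. Peaks were deposited per library, and the program that called them is not given in the sources used. Positions are given 1-based.

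From these values were computed same-strand overlaps (1 nt or more), Wilson intervals, sites joined within 50 nt and stretches chained within 5 kb, with Python 3.11.15, numpy 2.4.6, pandas 2.3.3 and scipy 1.17.1. The overlap and site steps were tested on simulated peaks. Named sites were the 10 shared sites of highest lower fold and the 6 highest sites of each library alone, leaving out sites within 1 kb of a named one. The members, lists and thresholds were chosen with earlier results of these data known. Planned counts of GGAG motifs and of genes were not made, since no hg19 sequence or annotation was used here.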

Additional observations from a re-analysis of the deposited data

Results flagged for a closer look

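Of the 7 V5-only lists, the one of 125 to 200 kDa lay far from the rest in its overlap with LIN28. It met 4.79% of significant LIN28 V5 peaks, where the next list met 1.39% and the lowest 0.308%. It met 5.0% of significant LIN28 wild-type peaks, where the next list met 1.29% and the lowest 0.149%. This list held 6562 significant peaks, the most of the V5-only lists. For this measure 4 sets of 7 values were examined and 2 held such a value, where chance gives about 1 in 20. Both values come from the same V5-only list and are not independent. The FLAG-only list of the same range also met most peaks of its set, 8.15% of LIN28 V5 peaks and 6.93% of LIN28 wild-type peaks, without lying as far from the next.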

How the results depend on the processing

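The median difference and the correlation kept their sign in all alternatives, and for the other results no reversal was defined. Of 52 alternative values over 9 results, 38 moved by more than the limit set for them. The limit was 1.5 times for the ratio of significant peaks, and an interval for the rest. When a −log10 p of 5 was required, the share of significant wild-type peaks in V5 was 92.4%, the median difference 0.66, r 0.681, the margin over the next list 79.8 points and the V5 share at V5-only sites 6.17%. With a log2 fold of at least 2, 33.3% of V5 peaks and 86.8% of wild-type peaks were shared, the margin was 59.7 points and the V5-only share 20.0%. With a log2 fold of at least 4, 26.5% of V5 and 73.6% of wild-type peaks were shared, and the V5-only share was 1.54%. With 50% of both peaks shared, the values were 18.1% of V5 and 69.6% of wild-type significant peaks, 18.5% of V5 rows and 31.8% of wild-type rows, r 0.739, 60.9 points and 3.78%. Within 100 nt they were 32.3% and 83.6% of significant peaks, 41.0% and 59.9% of rows, 63.6 points and 12.5%. With lists of equal length, 61.1% of V5 and 45.4% of wild-type peaks were shared at 2020 peaks per list. The V5 share was then the larger, the reverse of the full lists with 28.8% of V5 and 81.8% of wild-type peaks. These shares count peaks and not sites. Of the 1508 shared sites of the full lists, 579 held several V5 peaks and 130 several wild-type peaks, and shares by site were not computed at equal length. The margin was 42.9 points at 375 peaks per list. Without tag-only sites the median difference was 0.52 and r 0.742. With joined peaks 24.4% of V5 regions were shared. Over rows with a fold above 0, 46.4% of wild-type rows lay on V5 rows. Without pairs holding a −log10 p of 15.7 or 400 the median difference was 0.35 and r 0.673. With 1 pair per wild-type peak r was 0.703. The cause of these moves was not tested. Of the alternatives chosen after seeing the data, no p threshold gave 27.6% of V5 and 61.8% of wild-type peaks shared, and leaving out the V5-only list of 125 to 200 kDa gave a V5-only share of 3.77%. The ratio of significant peaks ran from 2.86 without a p threshold to 4.66 with a −log10 p of at least 5.

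No paired analysis was possible because each state had 1 library, and no comparison of the states comes from a test. Dixon's outlier rule was applied only to the overlaps with the tag-only lists. The planned motif and gene counts and their alternatives were not run. Depth in reads is unknown, so a peak of 1 library that is missing from the other was not detectable there by this threshold and is not shown to be absent.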

Other observations

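The mitochondrial chromosome ran against the rest of the genome. Its 183 overlapping LIN28 pairs had a median log2 fold of −1.04 in V5 and −0.18 in wild type, with a median difference of −0.91, and V5 was lower in 173 of them. Peaks below input are rows with a negative log2 fold of the immunoprecipitation over its input, which does not give an amount of RNA. Despite this, 3 of the 148 mitochondrial rows of V5 were significant, and none of the 156 of wild type. The V5 peak at chrM:5827-5858, minus strand, had a log2 fold of 3.73, against 1.51 in wild type. The V5 peak at chrM:15958-15989, minus strand, had 3.71, against 1.64 in wild type, and the V5 peak at chrM:4303-4327, plus strand, had 3.05 with no wild-type peak called.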
